A study of Homo sapiens with 18 samples.

Results

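The 10 genes described here encode the transforming growth factor beta (TGF-beta) ligands TGFB1, TGFB2 and TGFB3, the receptors TGFBR1 and TGFBR2, the latent TGF-beta binding proteins LTBP1 and LTBP2, the signal transducers SMAD3 and SMAD7, and the secreted TGF-beta-induced protein TGFBI. They were chosen by symbol, with earlier results of these data known. Each symbol was found on 1 of the 28266 gene rows of a read count table. The table held 18 bulk poly(A) RNA libraries of IMR90 ER:RAS cells, which are human fetal lung fibroblasts that carry a RAS oncogene fused to an oestrogen receptor domain. The labels gave the genotype of every library as WT. Senescent cells had been given 100 nM 4OHT, the tamoxifen metabolite that switches the fusion on, and control cells had not. After 7 days both were kept for 3 days in DMSO, in IMP1088 at 300 nM or in DDD86481 at 1.5 µM, and RNA was collected on day 10. IMP1088 and DDD86481 inhibit the N-myristoyltransferases (NMTs), which attach the fatty acid myristate to proteins. This gave 6 groups of 3 libraries. Senescence here is induced by an oncogene in 1 fibroblast strain, and the inhibitors were studied because they kill senescent cells, so their libraries hold the cells that were left after 3 days. The study's supplement describes the replicates of this experiment as independent experiments, while the labels give only their numbers.

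TGF-beta is secreted in a latent complex, in which a propeptide holds the ligand and an LTBP tethers it to the extracellular matrix. Once released by integrins, proteases or thrombospondin, the ligand binds TGFBR2, which phosphorylates TGFBR1, and TGFBR1 then phosphorylates SMAD2 and SMAD3. In fibroblasts the pathway is known for driving matrix and contractile genes and for restraining growth, and it induces its own inhibitor SMAD7.

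Library totals ran from 16143716 to 23189950 counts. All 10 genes were among the 14341 genes that passed a filter on low counts. A count of 0 allows a level of up to 3 counts, which came to between 0.121 and 0.187 CPM (counts scaled to a common library size) in these libraries. This floor covers counting error only. Control DMSO replicate 3 stood apart: the SD over genes of its log2 difference was 0.566 from replicate 1 and 0.438 from replicate 2, against 0.336 between those replicates. Fold changes and interactions of the 10 genes that rest on it are therefore given without it as well. Pathway genes and lists at the end are mostly given with all libraries. All 10 fibroblast markers examined were detected in every group. Their summed level was 24831 to 36275 CPM in control cells and 11559 to 17064 CPM in senescent cells, and 8 of the 10 were lower in senescence without inhibitor, with a median log2 fold change of -1.61. Of all genes, 36.0% were called lower in that comparison, at the threshold given below. The 12 markers of other cell types summed to 14.2 to 19.2 CPM in control and 6.56 to 12 CPM in senescent libraries, and the epithelial markers KRT5 and SFTPC and the T cell marker CD3E were at 0 in every library. Within that sum the markers moved in different directions between control and senescent DMSO cells. The endothelial markers PECAM1, CDH5 and VWF went from 0.0806 to 0.348, 0 to 0.0402 and 0.805 to 1.65 CPM up to 2.31 to 3.11, 1.54 to 2.05 and 4.86 to 6.43 CPM, and the muscle markers DES and MYH11 from 11.3 to 13.1 and 3.28 to 4.79 CPM down to 0.11 to 0.247 and 0.0617 to 0.249 CPM. The part of these marker levels in the results was not tested, and 4 of these markers also stand in the pathway lists used at the end. In bulk RNA, fewer cells of a type and less RNA per cell cannot be told apart.

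The 3 ligand genes differ in the DNA before their start sites, which is shown because their transcripts moved in different ways in these libraries. Each stretch holds the 200 bases before a start site, 5′ to 3′ on the gene's strand, from RefSeq on GRCh38.p14. Capitals mark matches on either strand to the GC box GGGCGG, the CRE core CGTCA (part of the cyclic AMP response element TGACGTCA, so every full element also holds a core), the SMAD box CAGACA or the TATA box TATAAA.
TGFB1: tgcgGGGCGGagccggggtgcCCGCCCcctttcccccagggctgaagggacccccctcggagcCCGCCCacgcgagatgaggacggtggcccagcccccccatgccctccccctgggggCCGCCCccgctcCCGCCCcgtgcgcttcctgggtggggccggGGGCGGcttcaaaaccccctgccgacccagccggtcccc
TGFB2: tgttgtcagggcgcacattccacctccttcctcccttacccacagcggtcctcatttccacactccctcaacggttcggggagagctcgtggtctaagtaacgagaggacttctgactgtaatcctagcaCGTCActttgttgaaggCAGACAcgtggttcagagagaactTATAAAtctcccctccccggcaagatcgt
TGFB3: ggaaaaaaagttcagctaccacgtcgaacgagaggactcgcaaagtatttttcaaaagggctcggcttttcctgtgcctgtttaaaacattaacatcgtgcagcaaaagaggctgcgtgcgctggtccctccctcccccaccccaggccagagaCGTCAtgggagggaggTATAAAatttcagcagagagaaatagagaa
The TGFB1 stretch, chr19:41353923-41354122 on the minus strand, held 6 GC boxes, no TATA box and 79.5% G and C. In the TGFB2 stretch, chr1:218345136-218345335 on the plus strand, a CRE core, a SMAD box and a TATA box lay in the last 70 bases, and G and C made up 53% of the bases. The TGFB3 stretch, chr14:75981996-75982195 on the minus strand, carried a CRE core and a TATA box and had 49.5% G and C. This stretch lies before the downstream of the TGFB3 start sites that RefSeq lists. The upstream one is at the 5′ end of the gene position given below, and its window (chr14:75982962-75983261) held none of the motifs searched. Over all 35116 RefSeq promoter windows of 300 bases, 45% held a GC box, 24.6% a CRE core, 16.9% a SMAD box and 11.5% a TATA box. The full CRE TGACGTCA, found in 1.85% of windows, was present at 1 LTBP1 start site, and the AP-1 site TGANTCA, found in 7.71%, at 1 start site each of TGFBR2 and SMAD3. These are matches of letters and were not tested as binding sites. Whether they have a part in the changes of the transcripts was not tested.

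Senescence changed most of these genes. Compared with control cells, senescent cells without inhibitor had more TGFB1 and LTBP2 and less TGFB3, SMAD3, TGFBR1, LTBP1 and TGFBI, with smaller differences for SMAD7 (higher) and TGFBR2 (lower). In edgeR's quasi-likelihood test with Benjamini-Hochberg adjustment over all genes, 3 of the 10 genes were called higher and 6 lower at an adjusted p under 0.05. Of all genes tested, 32.5% were called higher and 36.0% lower, so a call either way was the common outcome in this comparison. The median log2 fold change of the 10 genes was -0.37, against -0.05 for all genes. The same contrast under IMP1088 and under DDD86481 uses other libraries. In each of these, 2 genes were called higher, where 36.2% and 36.1% of all genes were, and 7 lower, where 37.9% and 37.9% were. TGFB1 and LTBP2 were called higher in all 3 senescence comparisons, and TGFB3, TGFBR1, TGFBR2, LTBP1, SMAD3 and TGFBI were called lower in all 3. Over all genes, 25.5% were called higher and 27.0% lower in all 3. SMAD7 was called in the first comparison alone, and TGFB2 was called lower under each inhibitor but not without one. Separation of the libraries of both states was also common. They did not overlap, either way, for 67.6% of all genes without inhibitor, 80.9% under IMP1088 and 76.1% under DDD86481. How many of all genes kept the states apart over all 18 libraries at once was not counted.

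**Figure D1:**
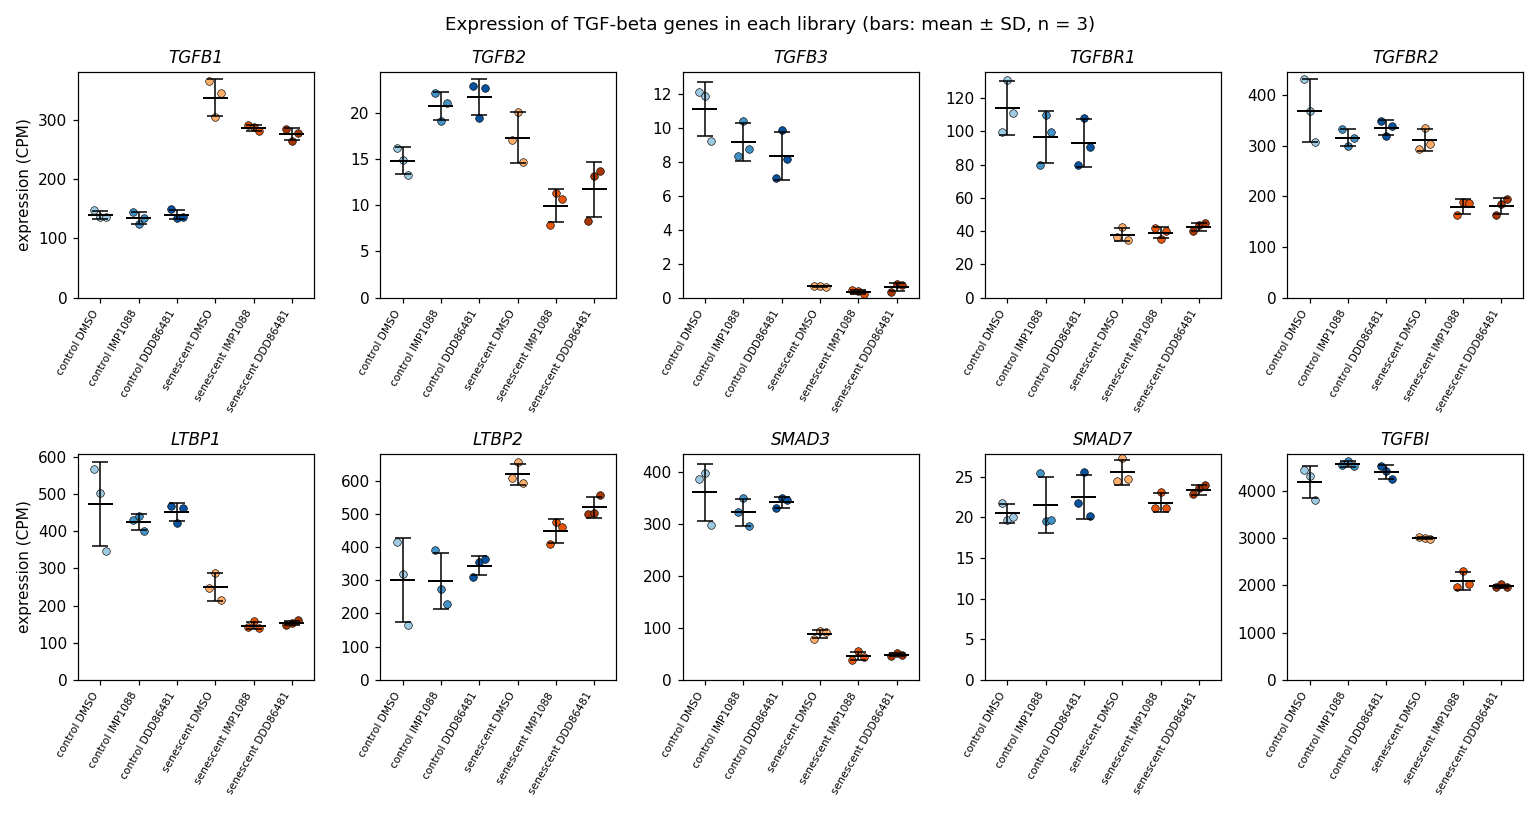
Expression of the 10 genes in CPM (linear axes from 0) in each of the 18 libraries, with 1 panel per gene, points for replicates 1 to 3 from left to right, and bars for mean ± SD (n = 3). The senescent libraries (orange) lie above all control libraries (blue) for TGFB1, at 265 to 366 against 125 to 149 CPM, and below all of them for TGFB3, TGFBR1, LTBP1, SMAD3 and TGFBI. The share of all genes that separate in this way over all 18 libraries was not counted.

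TGFB1 (chr19:41330323-41353922, as are all positions here by RefSeq on GRCh38.p14) was the ligand that rose. Its level in control cells was 148, 136 and 137 CPM with DMSO, 145, 125 and 134 CPM with IMP1088, and 149, 134 and 137 CPM with DDD86481. In senescent cells TGFB1 was at 366, 305 and 345 CPM with DMSO, 291, 289 and 282 CPM with IMP1088, and 285, 265 and 278 CPM with DDD86481. The 2 states did not overlap, and within the senescent cells every library with an inhibitor was below every library without. Among all genes the latter was so for 32.9% with IMP1088 and 28.7% with DDD86481. TGFB1 was 2.42-fold higher in senescence without inhibitor, a log2 fold change of 1.27 ± 0.086 (SE, adjusted p = 5.02e-11), and its rise was 1.10 ± 0.086 under IMP1088 and 0.98 ± 0.086 under DDD86481. In senescent cells TGFB1 was called lower with IMP1088, by a log2 fold change of -0.24 ± 0.085 (adjusted p = 0.0282), and with DDD86481, by -0.29 ± 0.085 (adjusted p = 0.00818). These small falls were fragile. With IMP1088 the fall no longer passed without any 1 of senescent DMSO replicates 1 and 3 and senescent IMP1088 replicates 1, 2 and 3 (adjusted p = 0.0599 to 0.15) or with no filter on low counts (adjusted p = 0.0682). With DDD86481 it no longer passed without senescent DMSO replicate 1 (adjusted p = 0.0587). In control cells TGFB1 differed from DMSO by -0.06 ± 0.085 with IMP1088 and by -0.0026 ± 0.085 with DDD86481, and neither was called. Without control DMSO replicate 3 these were -0.078 and -0.021, and the rise in senescence was 1.26.

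TGFB2 (chr1:218345336-218444619) did not follow TGFB1. Its level in control cells was 16.2, 14.9 and 13.3 CPM with DMSO, 22.1, 19.1 and 21 CPM with IMP1088, and 22.9, 19.4 and 22.7 CPM with DDD86481. In senescent cells TGFB2 was at 17, 20.1 and 14.7 CPM with DMSO, 7.89, 11.3 and 10.7 CPM with IMP1088, and 8.24, 13.2 and 13.7 CPM with DDD86481. Without inhibitor the states overlapped and the log2 fold change was 0.22 ± 0.17 (adjusted p = 0.257, 95% interval -0.13 to 0.57), or 0.15 (adjusted p = 0.471) without control DMSO replicate 3. The inhibitors moved TGFB2 in opposite directions in the 2 states. In senescent cells it fell with IMP1088, with a log2 fold change of -0.79 ± 0.17 (adjusted p = 0.00095), and with DDD86481, with -0.56 ± 0.17 (adjusted p = 0.0126). The DDD86481 call was lost without senescent DMSO replicate 2 (-0.44, adjusted p = 0.0777) or without senescent DDD86481 replicate 1 (-0.36, adjusted p = 0.0857), which is the lowest of its group. In control cells TGFB2 rose by 0.48 ± 0.17 with IMP1088 (adjusted p = 0.0304) and by 0.55 ± 0.17 with DDD86481 (adjusted p = 0.0142). Without control DMSO replicate 3 these values were 0.41 (adjusted p = 0.0834) and 0.48 (adjusted p = 0.0441). The IMP1088 call was also lost without control DMSO replicate 2 or control IMP1088 replicate 1 or 3 (adjusted p up to 0.0955) and reached 0.05 with upper quartile scaling, and the DDD86481 call without control DDD86481 replicate 1 (adjusted p = 0.0515). The test of the difference between states, an interaction term, gave -1.27 ± 0.24 for IMP1088 (adjusted p = 0.000731) and -1.11 ± 0.24 for DDD86481 (adjusted p = 0.00209), and both held in every fit that left out 1 library (-1.20 and -1.04 without control DMSO replicate 3). On the GENCODE annotation, 22.7% of the exonic bases of TGFB2 lie in TGFB2-OT1, a transcript on the same strand that is listed at 0 counts in all 18 libraries, and the antisense gene TGFB2-AS1 held 0 to 2 counts per library. How reads in the bases shared with TGFB2-OT1 were counted is not known, so the 0 does not show whether they are part of the TGFB2 level.

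TGFB3 (chr14:75958097-75983011) was close to the floor in senescent cells. Its level in control cells was 12.1, 11.9 and 9.26 CPM with DMSO, 8.33, 10.4 and 8.74 CPM with IMP1088, and 7.04, 9.86 and 8.18 CPM with DDD86481. In senescent cells TGFB3 had 11, 11 and 11 counts with DMSO, 8, 7 and 4 counts with IMP1088, and 6, 15 and 12 counts with DDD86481, which is 0.224 to 0.784 CPM. No senescent library came near a control library, and the fall without inhibitor was 16.8-fold, a log2 fold change of -4.07 ± 0.24 (adjusted p = 5.27e-12), or -4.18 without control DMSO replicate 3. Under IMP1088 the senescent level was lower by -4.70 ± 0.27 and under DDD86481 by -3.75 ± 0.24. Between inhibitor and DMSO in senescent cells, the values were -0.90 ± 0.40 for IMP1088 (adjusted p = 0.0728) and -0.091 ± 0.36 for DDD86481 (adjusted p = 0.859), with 95% intervals of -1.74 to -0.07 and -0.83 to 0.65, so changes of this size were not resolved at this depth. In control cells TGFB3 was not called with either inhibitor, at -0.28 ± 0.17 and -0.41 ± 0.17 (adjusted p = 0.212 and 0.0611). The IMP1088 value was -0.39 (adjusted p = 0.092) without control DMSO replicate 3. The DDD86481 value was called without control DMSO replicate 3 (-0.52, adjusted p = 0.0236) or control DDD86481 replicate 2 (-0.54, adjusted p = 0.0336).

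**Figure D2:**
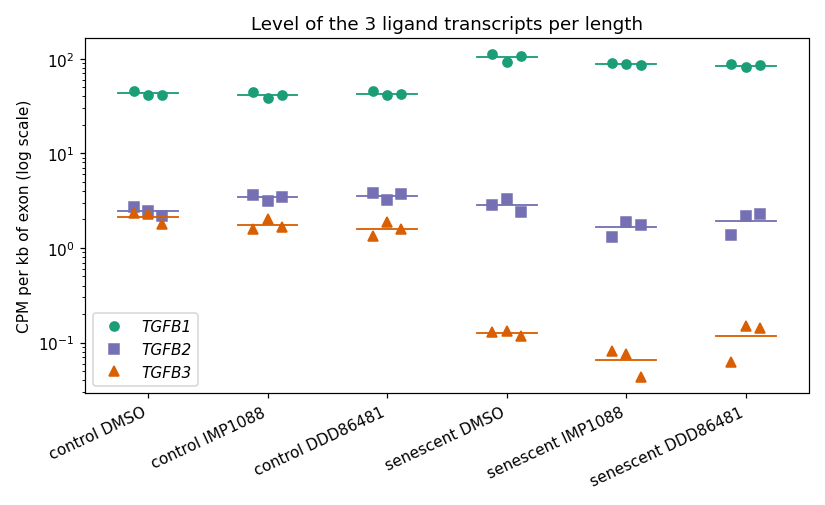
Level of the 3 ligand transcripts in CPM per kb of exon (log axis) in each library, with lines at the group means. TGFB1 lies above the other ligands in every group, and TGFB3 drops from a mean of 2.12 to 0.126 CPM per kb between control and senescent DMSO cells.

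Divided by the length of their merged exons, the ligand transcripts were unequal in abundance from the start. In control DMSO cells TGFB1 stood at 42.9 ± 2.08 CPM per kb (SD, n = 3), TGFB2 at 2.45 ± 0.245 and TGFB3 at 2.12 ± 0.304. TGFB1 made up 90.4% ± 0.843 of this summed ligand level, and the TGFB2 and TGFB3 shares were 5.15% ± 0.313 and 4.47% ± 0.538. In senescent DMSO cells the TGFB1 share was 97.2% ± 0.652, TGFB2 had 2.71% ± 0.637 and TGFB3 0.119% ± 0.015. The TGFB1 share lay between 88.8% and 90.4% in the control groups and between 97.2% and 98.1% in the senescent groups. The order TGFB1, TGFB2, TGFB3 held for the mean of every group, although in control DMSO cells the TGFB2 shares (4.79% to 5.34%) and the TGFB3 shares (3.87% to 4.91%) overlapped. With the longest transcript as the length, TGFB3 (5.75%) came before TGFB2 (4.49%) in those cells, so the order of these ligands there depends on the length used. The TGFB2 level per kb also depends on how reads in the bases shared with TGFB2-OT1 were counted, which is not known.

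The LTBP1 and LTBP2 transcripts went in opposite directions in senescence. LTBP1 (chr2:32946953-33399509), a matrix tether of latent TGF-beta, in control cells was at 567, 504 and 348 CPM with DMSO, 431, 440 and 400 CPM with IMP1088, and 469, 423 and 462 CPM with DDD86481. In senescent cells LTBP1 was at 248, 288 and 214 CPM with DMSO, 141, 158 and 140 CPM with IMP1088, and 148, 152 and 161 CPM with DDD86481. The groups formed 3 steps with no overlap between them: control cells, senescent cells without inhibitor, and senescent cells with either inhibitor. Between pairs of groups such separation was common: 35.2% of all genes lay wholly lower in senescence without inhibitor. Within senescent cells 32.9% did with IMP1088 and 28.7% with DDD86481. How many of all genes formed all 3 steps was not counted. LTBP1 fell 1.89-fold in senescence without inhibitor, with a log2 fold change of -0.92 ± 0.13 (adjusted p = 4.25e-06), or -1.10 ± 0.10 without control DMSO replicate 3. In senescent cells it fell further by -0.78 ± 0.13 with IMP1088 (adjusted p = 9.31e-05) and by -0.70 ± 0.13 with DDD86481 (adjusted p = 0.000262). In control cells the values were -0.16 ± 0.13 and -0.068 ± 0.13, neither called, but without control DMSO replicate 3 they were -0.34 (adjusted p = 0.0149, called) and -0.25 (adjusted p = 0.0725). The difference between states was -0.62 ± 0.19 for IMP1088 (adjusted p = 0.0209) and -0.64 ± 0.19 for DDD86481 (adjusted p = 0.016). It was -0.44 and -0.46 without control DMSO replicate 3, still called. Both calls were lost when the groups compared were fitted alone (adjusted p = 0.0623 and 0.0606) and without senescent DMSO replicate 2 (adjusted p = 0.0701 and 0.0552), and the IMP1088 call was also lost without control IMP1088 replicate 1 or 2 or senescent IMP1088 replicate 1 or 3 (adjusted p up to 0.0622).

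LTBP2 (chr14:74498183-74612237) is the family member that binds matrix but is not known to hold the latent ligand. In control cells LTBP2 was at 415, 320 and 166 CPM with DMSO, 391, 274 and 228 CPM with IMP1088, and 311, 355 and 365 CPM with DDD86481. Senescent levels of LTBP2 were 608, 655 and 594 CPM with DMSO, 409, 476 and 459 CPM with IMP1088, and 500, 502 and 555 CPM with DDD86481. Control DMSO cells varied most for this gene, and replicate 3 was the lowest of all 18 libraries. The rise in senescence was 2.06-fold without inhibitor, a log2 fold change of 1.04 ± 0.22 (adjusted p = 0.000258), and 0.75 ± 0.15 (adjusted p = 0.000156) without that library. Under IMP1088 and DDD86481 the rise was 0.59 ± 0.22 and 0.59 ± 0.22 (adjusted p = 0.0186 and 0.0178). It was no longer called under IMP1088 without control IMP1088 replicate 2 or 3 or senescent IMP1088 replicate 2 (adjusted p up to 0.112), or under DDD86481 without control DDD86481 replicate 1 or senescent DDD86481 replicate 3 (adjusted p up to 0.068). In senescent cells the 2 inhibitors gave -0.47 ± 0.21 (adjusted p = 0.0846) and -0.25 ± 0.21 (adjusted p = 0.359), although every inhibitor library was below every DMSO library. Libraries lay apart in this direction for 32.9% of all genes with IMP1088 and 28.7% with DDD86481. With the 2 groups fitted alone the IMP1088 value was -0.43 (adjusted p = 1.98e-05), and with no filter on low counts it was -0.47 (adjusted p = 0.00552). In control cells the values were -0.014 ± 0.21 and 0.19 ± 0.21, and the DDD86481 value was called without control DMSO replicate 1 (0.50, adjusted p = 0.0468). The interaction was -0.45 ± 0.30 for each inhibitor and not called, and it moved with the control DMSO libraries. It was -0.76 (adjusted p = 0.0294) and -0.75 (adjusted p = 0.0279) without replicate 1, and -0.16 (adjusted p = 0.612) and -0.16 (adjusted p = 0.613) without replicate 3. Without replicate 3 the control cell values were -0.30 and -0.097, neither called.

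The receptors were called lower in all 3 senescence comparisons. TGFBR1 (chr9:99103647-99154192), the type I receptor kinase, was at 99.6, 131 and 111 CPM with DMSO, 80.1, 110 and 99.8 CPM with IMP1088, and 79.6, 108 and 90.7 CPM with DDD86481 in control cells. Senescent cells had 36.7, 42.3 and 34.7 CPM of TGFBR1 with DMSO, 41.7, 35.2 and 40.2 CPM with IMP1088, and 40, 43.4 and 44.6 CPM with DDD86481. The states were far apart and the senescent groups overlapped each other. TGFBR1 fell 3.01-fold without inhibitor, with a log2 fold change of -1.59 ± 0.14 (adjusted p = 1.89e-09), and by -1.31 ± 0.13 and -1.12 ± 0.13 under IMP1088 and DDD86481. Against DMSO in senescent cells the inhibitors gave 0.045 ± 0.14 and 0.17 ± 0.14 (95% intervals -0.24 to 0.33 and -0.11 to 0.45), with no call. In control cells they gave -0.24 ± 0.13 and -0.30 ± 0.13 (adjusted p = 0.169 and 0.0803), and the DDD86481 value was called without control DMSO replicate 1 (-0.39, adjusted p = 0.0249) or control DDD86481 replicate 2 (-0.42, adjusted p = 0.0287). Without control DMSO replicate 3 the control cell values were -0.25 and -0.32 and the fall in senescence was -1.61.

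TGFBR2 (chr3:30606356-30694142), the type II receptor that binds the ligand first, followed another pattern. In control cells TGFBR2 was at 433, 369 and 308 CPM with DMSO, 333, 299 and 316 CPM with IMP1088, and 349, 320 and 339 CPM with DDD86481. Senescent cells had 293, 335 and 304 CPM of TGFBR2 with DMSO, 164, 190 and 188 CPM with IMP1088, and 164, 186 and 195 CPM with DDD86481. Senescent DMSO libraries overlapped the control libraries, while the inhibitor libraries lay below all others. The senescence difference without inhibitor was -0.25 ± 0.11 (adjusted p = 0.0449). It did not pass without control DMSO replicate 1 (-0.12, adjusted p = 0.306), control DMSO replicate 2 or senescent DMSO replicate 1 or 3 (adjusted p = 0.0528 to 0.148), nor in 5 of 6 other fits, DESeq2 among them (adjusted p = 0.0544 to 0.176). Without control DMSO replicate 3 it was -0.37 (adjusted p = 0.0017). With an inhibitor TGFBR2 fell in senescent cells by -0.78 ± 0.11 (IMP1088, adjusted p = 7.96e-06) and -0.78 ± 0.11 (DDD86481, adjusted p = 9.77e-06), and these calls held without any 1 library. In control cells the inhibitor values were -0.23 ± 0.11 (adjusted p = 0.111) and -0.14 ± 0.11 (adjusted p = 0.33), and the first was called with upper quartile scaling (-0.28, adjusted p = 0.0446). Without control DMSO replicate 3 they were -0.34 (adjusted p = 0.00906) and -0.26 (adjusted p = 0.0493), both called. The difference between states was -0.56 ± 0.15 (adjusted p = 0.0116) and -0.64 ± 0.15 (adjusted p = 0.00452), and -0.44 (adjusted p = 0.0178) and -0.52 (adjusted p = 0.00551) without that library. Per length, TGFBR2 was the more abundant receptor in every group: 54 ± 9.15 against 14.3 ± 2.01 CPM per kb in control DMSO cells, and 45.4 ± 3.19 against 4.74 ± 0.497 in senescent DMSO cells.

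SMAD3 (chr15:67065602-67195169), the receptor-activated transcription factor, had the largest fall of the 10 genes after TGFB3 in each senescence comparison. In control cells SMAD3 was at 385, 397 and 297 CPM with DMSO, 322, 349 and 296 CPM with IMP1088, and 330, 349 and 345 CPM with DDD86481. Senescent cells had 79.3, 93.1 and 92.7 CPM of SMAD3 with DMSO, 38, 54.9 and 44.4 CPM with IMP1088, and 45.8, 51.5 and 47 CPM with DDD86481. As for LTBP1, there were 3 separate steps. SMAD3 fell 4.07-fold in senescence without inhibitor, a log2 fold change of -2.02 ± 0.13 (adjusted p = 1.42e-11), and 7.05-fold and 7.1-fold under IMP1088 and DDD86481. In senescent cells it fell by -0.95 ± 0.13 with IMP1088 (adjusted p = 4.66e-06) and by -0.88 ± 0.13 with DDD86481 (adjusted p = 1.21e-05). In control cells the values were -0.16 ± 0.12 and -0.075 ± 0.12 and were not called, and the difference between states was -0.79 ± 0.17 (adjusted p = 0.00256) and -0.80 ± 0.17 (adjusted p = 0.00217). All of the SMAD3 calls named here held without any 1 library. When control DMSO replicate 3 was left out, the fall in senescence was -2.15, the control cell values were -0.28 and -0.20 (adjusted p = 0.0603 and 0.192), and the difference between states was -0.67 and -0.68.

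SMAD7 (chr18:48919853-48950965), the inhibitory SMAD that marks the receptor for destruction, had the smallest spread of the 10 genes over the 18 libraries. Control cells had 21.8, 19.7 and 20 CPM of SMAD7 with DMSO, 25.4, 19.5 and 19.6 CPM with IMP1088, and 21.8, 25.5 and 20.2 CPM with DDD86481. Senescent cells had 24.5, 27.3 and 24.7 CPM of SMAD7 with DMSO, 21.1, 23.1 and 21.1 CPM with IMP1088, and 22.8, 23.6 and 24 CPM with DDD86481. Its rise in senescence without inhibitor was 0.31 ± 0.12 on the log2 scale (adjusted p = 0.0203). The call was lost without control DMSO replicate 2 (adjusted p = 0.107) or senescent DMSO replicate 2 (adjusted p = 0.0818), and with upper quartile scaling (0.16, adjusted p = 0.232), which moved the median of all genes in this comparison by -0.15. Under IMP1088 and DDD86481 the senescence difference was 0.018 ± 0.12 and 0.059 ± 0.12, and with upper quartile scaling its sign changed. No inhibitor effect on SMAD7 was called in either state. The rise was 0.30 (adjusted p = 0.039) without control DMSO replicate 3, and then the control cell values were 0.051 and 0.11.

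TGFBI (chr5:136028988-136063818), a matrix adhesion protein named for its induction by TGF-beta, was the most abundant of the 10 transcripts, at 542 ± 43.4 CPM per kb in control DMSO cells. Control levels of TGFBI were 4441, 4311 and 3807 CPM with DMSO, 4546, 4644 and 4521 CPM with IMP1088, and 4539, 4416 and 4248 CPM with DDD86481. Senescent levels of TGFBI were 3015, 3013 and 2987 CPM with DMSO, 1959, 2305 and 2025 CPM with IMP1088, and 1972, 2021 and 1956 CPM with DDD86481. The same 3 steps appeared as for LTBP1 and SMAD3. TGFBI fell 1.39-fold in senescence without inhibitor (log2 fold change -0.48 ± 0.087, adjusted p = 5.86e-05), and 2.18-fold and 2.22-fold under IMP1088 and DDD86481. In senescent cells it fell by -0.52 ± 0.087 with IMP1088 (adjusted p = 6.14e-05) and by -0.60 ± 0.087 with DDD86481 (adjusted p = 1.33e-05). In control cells the values were 0.13 ± 0.086 and 0.072 ± 0.086 and were not called, and the difference between states was -0.65 ± 0.12 (adjusted p = 0.000749) and -0.67 ± 0.12 (adjusted p = 0.000528). With control DMSO replicate 3 left out, the fall in senescence was -0.54, the control cell values were 0.063 and 0.0076, and the difference between states was -0.58 and -0.61, still called.

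**Figure D3:**
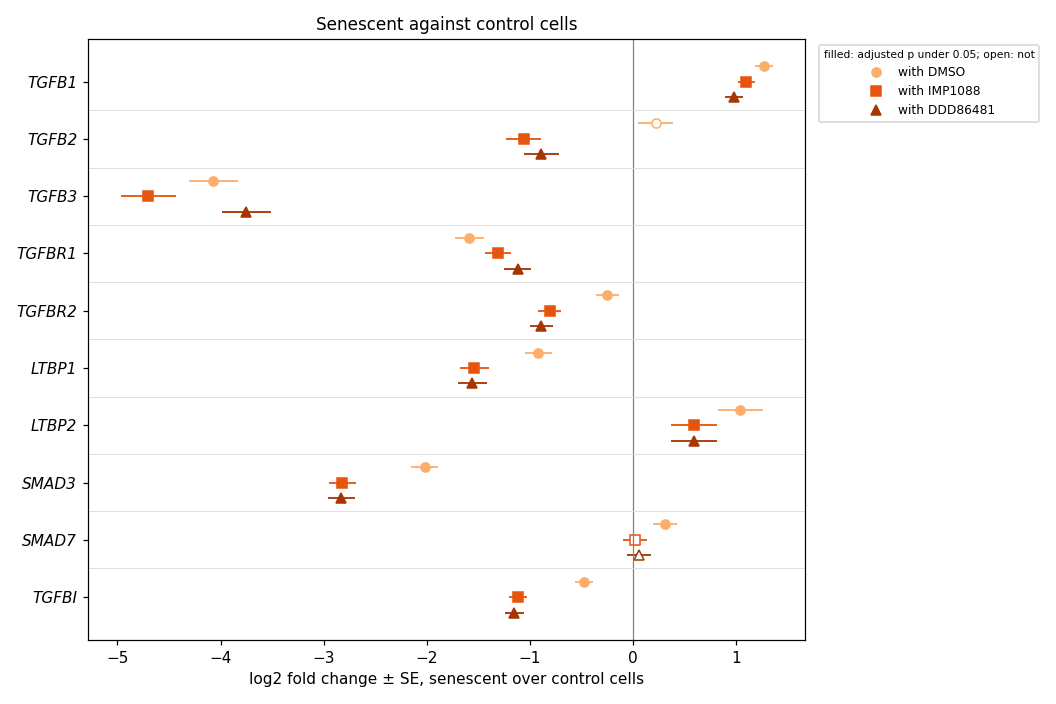
Log2 fold change ± SE of senescent over control cells for the 10 genes, with DMSO (circles), IMP1088 (squares) or DDD86481 (triangles) in both states. Filled symbols passed an adjusted p of 0.05; TGFB2 is open at 0.22 with DMSO and filled at -1.06 and -0.89 with the inhibitors.

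Set side by side, the inhibitor comparisons within each state differed in how many of the 10 genes were called. In senescent cells IMP1088 lowered 6 genes (TGFB1, TGFB2, TGFBR2, LTBP1, SMAD3 and TGFBI) and raised none, where 23.9% of all genes were called lower and 20.6% higher. DDD86481 lowered the same 6 and raised none, where 23.1% were called lower and 20.1% higher. The 2 comparisons share the senescent DMSO libraries. Leaving out 1 of the 6 libraries in turn gave 5 to 6 genes called with each inhibitor in senescent cells. The TGFB1 call with IMP1088 was lost in 5 of these 6 fits. With DDD86481 the TGFB1 call was lost in 1 of 6 and the TGFB2 call in 2 of 6. The median log2 fold change of the 10 genes was -0.65 with IMP1088 and -0.43 with DDD86481, against -0.043 and -0.037 for all genes. In control cells TGFB2 was the 1 gene called with IMP1088, higher, where 16.3% of all genes were called higher and 17.4% lower, and the 1 gene called with DDD86481, where the shares were 17.8% and 18.7%. With 1 of the 6 libraries left out in turn, the count in control cells ran from 0 to 2 for IMP1088 and from 0 to 3 for DDD86481. The interaction was called lower for TGFB2, TGFBR2, LTBP1, SMAD3 and TGFBI with each inhibitor, where 14.2% of all genes were with IMP1088 and 15.9% with DDD86481. For TGFB1 the interaction was -0.18 ± 0.12 (adjusted p = 0.289) and -0.29 ± 0.12 (adjusted p = 0.0713), so a smaller effect in control cells was not shown. The TGFBR1 interaction went the other way, at 0.28 ± 0.19 (adjusted p = 0.28) and 0.47 ± 0.19 (adjusted p = 0.0646). Both DDD86481 values were called without control DMSO replicate 1 (adjusted p = 0.0403 for TGFB1 and 0.0212 for TGFBR1) or senescent DMSO replicate 2 (0.0372 and 0.0498). That of TGFB1 was also called in DESeq2 (0.0385), and that of TGFBR1 without control DDD86481 replicate 2 (0.0209) and with no filter (0.0468). Without control DMSO replicate 3 the TGFB1 interactions with IMP1088 and DDD86481 were -0.16 and -0.27. Those of TGFBR1 were then 0.30 and 0.49, and none of these was called.

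**Figure D4:**
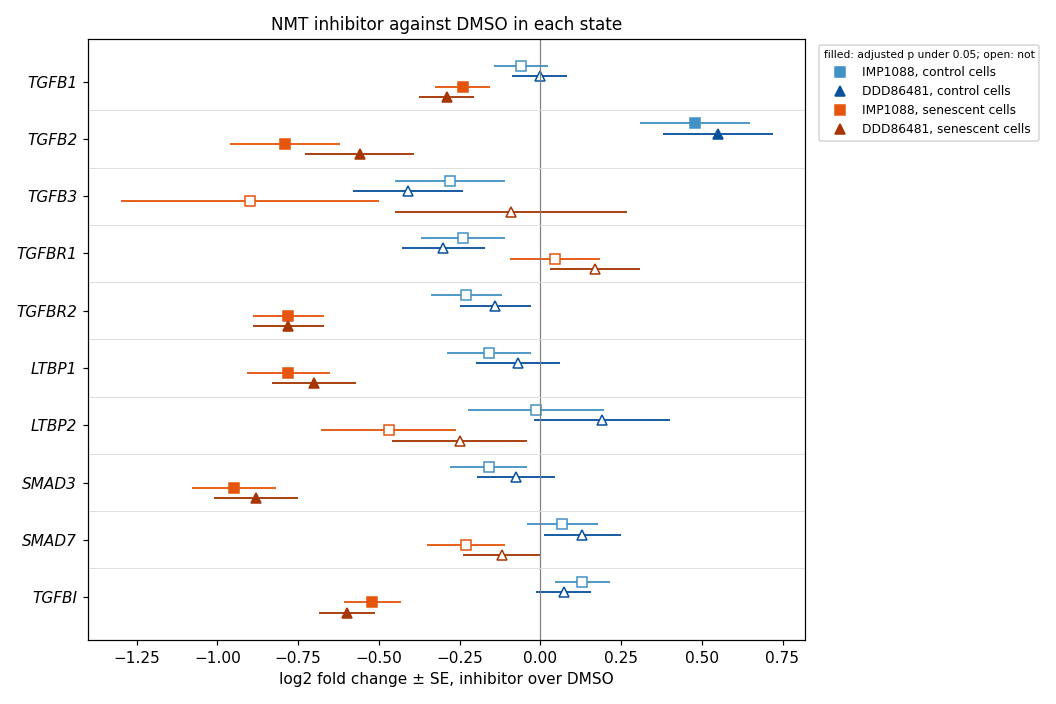
Log2 fold change ± SE of each NMT inhibitor over DMSO in control cells (blue) and senescent cells (orange) for the 10 genes, with squares for IMP1088 and triangles for DDD86481 and filled symbols for an adjusted p under 0.05. TGFB2 lies right of 0 in control cells (0.48 and 0.55) and left of 0 in senescent cells (-0.79 and -0.56), and SMAD3 reaches -0.95 and -0.88 in senescent cells.

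The inhibitors were compared with each other at their own doses, 300 nM for IMP1088 and 1.5 µM for DDD86481, so the comparison is of these treatments and not of matched doses. No gene of the 14341 was called in senescent or in control cells by edgeR (0% in each) or by DESeq2. In edgeR 570 and 141 genes had an unadjusted p under 0.05. Each count is less than the share of 0.05 of genes expected where none differs. None of the 10 genes had an unadjusted p under 0.05 in either state. Apart from TGFB3, the widest 95% interval of the log2 difference between them in senescent cells was that of LTBP2, -0.66 to 0.24, and the narrowest that of TGFB1, -0.12 to 0.23. The TGFB3 interval was -1.65 to 0.022, at 4 to 15 counts per library.

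The rest of the pathway was described with 4 gene lists that hold none of the 10 genes. These lists too were written with earlier results of these data known. In senescence without inhibitor, 27 of 72 listed genes tested were called higher and 35 lower, where 32.5% and 36.0% of all genes were. Of the latency and activation genes, which hold, store or release the ligand, 7 of 15 were higher and 7 lower. NRROS, which anchors latent TGF-beta on the surface of myeloid cells, rose by 4.34 ± 0.25 on the log2 scale, from 9 to 24 counts per control library to 174 to 252 counts, and the membrane protease MMP14 rose by 2.21 ± 0.11. LTBP4, which holds the latent TGFB1 complex, fell by 3.08 ± 0.14, and fibrillin FBN1, the microfibril that LTBPs bind, fell by 1.05 ± 0.25. Of the co-receptors and signal transducers 3 of 13 were higher and 5 lower, with 0.97 ± 0.12 for the endothelial type I receptor ACVRL1, 0.71 ± 0.12 for the co-receptor ENG, -2.02 ± 0.14 for the co-receptor TGFBR3 and -1.12 ± 0.27 for the acetyltransferase CREBBP. ACVRL1 and ENG are strongly expressed in endothelium, whose markers PECAM1, CDH5 and VWF were also higher in these libraries, as given above, and the part of these in their values was not tested. Of the inhibitors 8 of 14 were higher and 5 lower. PMEPA1, which holds receptor-activated SMADs back, and SMURF2, a ubiquitin ligase that turns the receptors over, rose by 2.03 ± 0.098 and 1.62 ± 0.11. SMAD6 fell by 1.81 ± 0.16, and decorin (DCN), a matrix proteoglycan that binds the ligand, fell from 2805 to 3255 CPM to 7.41 to 7.97 CPM.

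Genes known as TGF-beta targets in fibroblasts did not move one way. In senescence without inhibitor 9 of 30 were called higher and 18 lower, where 32.5% and 36.0% of all genes were. Their median log2 fold change was -1.16 against -0.05 for all genes. IL11, a profibrotic cytokine, rose by 6.81 ± 0.29, from 5.83 to 8.71 CPM to 631 to 835 CPM. PDGFB, a platelet-derived growth factor chain, went from 1 to 8 counts per control library to 140 to 163 counts. Elastin (ELN) went the other way, from 432 to 783 counts to 2 to 4 counts, and the smooth muscle protein TAGLN fell by 4.17 ± 0.18.

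**Figure D5:**
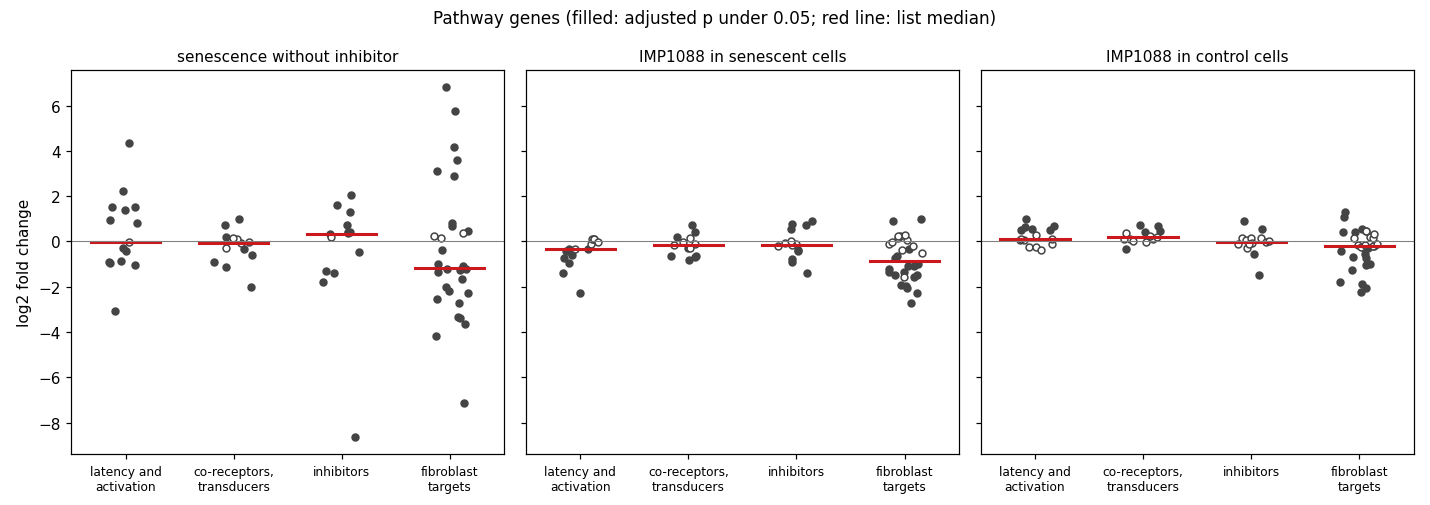
Log2 fold change of each gene in the 4 pathway lists in senescence without inhibitor, with IMP1088 in senescent cells and with IMP1088 in control cells (horizontal scatter within a list carries no meaning). Red lines mark list medians, which for the fibroblast targets are -1.16, -0.86 and -0.21 from left to right.

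With an inhibitor in senescent cells, most called pathway genes were lower. IMP1088 gave 9 higher and 36 lower of 72, and DDD86481 gave 9 higher and 31 lower, where the shares of all genes called were 20.6% higher and 23.9% lower for IMP1088, and for DDD86481 20.1% and 23.1%. No latency and activation gene was called higher by either, and 9 and 6 of 15 were called lower. Among them were THBS1, the thrombospondin that releases latent TGF-beta, at -2.28 ± 0.21 and -2.13 ± 0.21 with IMP1088 and DDD86481, and LRRC32, a cell surface anchor of the latent ligand, at -1.39 ± 0.13 and -1.53 ± 0.13. Of the co-receptors and transducers 3 and 2 of 13 were higher and 5 and 3 lower. SMAD4, the partner of SMAD3, rose by 0.74 ± 0.10 and 0.73 ± 0.10, and TRIM33, a ubiquitin ligase of SMAD4, by 0.43 ± 0.13 and 0.45 ± 0.13. TGFBRAP1, a receptor-associated protein, fell by 0.68 ± 0.16 and 0.70 ± 0.16. CREBBP fell by 0.81 ± 0.28 with IMP1088 (adjusted p = 0.0223), a call that was lost without replicate 2 of senescent DMSO or of senescent IMP1088 (adjusted p = 0.0512 and 0.0871), and ACVRL1 fell by 0.72 ± 0.12 with DDD86481.

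Of the inhibitors of the pathway, 4 and 4 of 14 were higher and 5 and 4 lower in senescent cells with IMP1088 and DDD86481. Among all genes 20.6% and 20.1% were called higher and 23.9% and 23.1% lower in these comparisons. The decoy receptor BAMBI rose by 0.90 ± 0.16 and 1.06 ± 0.16, and the ubiquitin ligase NEDD4L by 0.79 ± 0.14 and 0.65 ± 0.14, while SMURF2 fell by 1.38 ± 0.11 and 1.34 ± 0.11 and PMEPA1 by 0.91 ± 0.094 and 0.85 ± 0.094. Of the fibroblast targets 2 and 3 of 30 were higher and 17 and 18 lower, with medians of -0.86 and -0.81. PDGFB fell by 2.71 ± 0.28 and 3.06 ± 0.29 and TAGLN by 2.30 ± 0.17 with IMP1088, whereas the collagen gene COL1A2 rose by 0.97 ± 0.14 and 1.25 ± 0.14 and the AP-1 subunit JUNB by 0.90 ± 0.17 and 0.99 ± 0.17. ELN was called lower with DDD86481 (adjusted p = 0.0264), at 0 counts in all 3 libraries against 2 to 4 counts with DMSO, too few to give a fold. The call was lost without senescent DMSO replicate 3 or any 1 senescent DDD86481 library (adjusted p up to 0.0668).

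In control cells 6 of 15 latency and activation genes were called higher with IMP1088 and 5 with DDD86481, and none was called lower by either. The shares of all genes called higher and lower were 16.3% and 17.4% for IMP1088, and for DDD86481 17.8% and 18.7%. The IMP1088 count was 3 when the groups were fitted alone, and the DDD86481 count was 8 without control DMSO replicate 1. NRROS rose by 0.99 ± 0.32 with IMP1088, at 18 to 33 counts per library, a call lost without control DMSO replicate 2 or 3 or control IMP1088 replicate 1 (adjusted p = 0.0806 to 0.136), and MMP14 rose by 0.80 ± 0.11 with DDD86481. The interaction was called lower for 11 of the 15 with IMP1088 and 10 of 15 with DDD86481, where 14.2% and 15.9% of all genes were. These counts fell to 6 without control IMP1088 replicate 1, to 6 without control DDD86481 replicate 1, and for DDD86481 to 5 when the groups were fitted alone. Of the co-receptors and transducers 4 and 4 of 13 were higher and 1 and 0 lower. With IMP1088 the 5 calls fell to 2 or 3 without any 1 of control DMSO replicates 2 and 3 and the control IMP1088 libraries, and to 2 with the groups fitted alone. With DDD86481 the 4 calls became 7 without control DMSO replicate 1 and 2 with the groups fitted alone. EP300 rose by 0.74 ± 0.28 and 0.95 ± 0.28, but the IMP1088 call was lost without any 1 of control DMSO replicates 2 and 3 and the control IMP1088 libraries (adjusted p = 0.0636 to 0.176) and in DESeq2 (0.0893), and the DDD86481 call was lost when the groups were fitted alone (0.0594). ENG, at -0.33 ± 0.12 with IMP1088, lost its call without control DMSO replicate 1 or 2 or control IMP1088 replicate 2 or 3 (adjusted p = 0.0996 to 0.222). Inhibitors counted 2 and 2 of 14 higher and 2 and 3 lower, with NEDD4L at 0.89 ± 0.12 and 0.84 ± 0.12 and SMURF2 at -1.50 ± 0.11 and -1.38 ± 0.11. The fibroblast targets counted 6 and 7 of 30 higher and 13 and 10 lower (with IMP1088, 4 and 8 without control IMP1088 replicate 1, and 4 and 7 with the groups fitted alone), with the transcription factor BHLHE40 at 1.28 ± 0.13 and 1.17 ± 0.13 and smooth muscle actin (ACTA2) at -2.24 ± 0.12 and -2.30 ± 0.12.

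Genes with the most similar profile to each of the 10 were found by Pearson's r of log2 CPM over the 18 libraries. These libraries share their groups and fall into control and senescent cells, so r mostly follows the group means, and it is given as a description. TGFB1 was most like COLGALT1 (r = 0.994), TGFB3 like DRAM1 (r = 0.990) and TGFBR1 like SNHG3 (r = 0.988). LTBP1 was most like the collagen gene COL12A1 (r = 0.995), SMAD3 like SOBP (r = 0.996), TGFBI like ADD3 (r = 0.993) and TGFBR2 like TRAM2 (r = 0.991). The second in line were COASY (0.993), COL15A1 (0.989), LINC00968 (0.981), HEG1 (0.993), PCDH7 (0.995), NID2 (0.991) and TEAD1 (0.982), in the same order. TGFB2 and LTBP2 had less close partners, with FNDC3B (0.960) and PAPPA (0.948) for TGFB2 and PLEC (0.963) and CLSTN1 (0.953) for LTBP2. SMAD7 reached 0.814 with LOC101928516 and 0.765 with SEMA6D. Among the 10 genes themselves, LTBP1, SMAD3 and TGFBI were alike in profile, with r of 0.977 to 0.979 over the 18 libraries, and TGFB1 and TGFBR1 were the most opposed pair, at r = -0.974.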

How the data were processed

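The authors made directional poly(A) libraries, sequenced single-end reads and deposited unnormalized counts of reads for each gene symbol. The study's methods name TopHat on hg19 with a first-strand library setting and Ensembl annotation, and its software list names HTSeq, whereas the submitters' processing notes name hg38, DRAGEN, STAR 2.7.8a and DESeq2 1.32.0. Which of these made the table, and whether the counting step itself used strand, was not given in the sources used here, so the share of reads from overlapping or antisense genes is uncertain. Overlaps with other genes covered 34.2% of the exonic bases of TGFB2, 6.59% of those of TGFB1, and at most 3.39% of those of any other gene of the 10.

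Counts were analysed with edgeR 4.0.16 in R 4.3.3. Genes with low counts were removed with filterByExpr, which kept 14341 genes and 99.962% of counts, libraries were scaled by TMM, and 1 quasi-likelihood model with 6 groups was fitted to all 18 libraries. Adjusted p-values are Benjamini-Hochberg over all genes of a comparison, with a threshold of 0.05, SE is the log2 fold change divided by the root of F, and intervals are 95%. The scripts were tested on simulated data. CPM uses the scaled library size, and lengths are merged exons of GENCODE on GRCh37, used for length only. Lists were described by counts and medians.

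The members and lists were chosen with earlier results of these data known. Named were all 10 genes, the 2 highest and 2 lowest called genes of each list in senescence without inhibitor and for each inhibitor in senescent cells, 1 each way in control cells, and the 2 genes most like each of the 10. Alternatives were upper quartile and RLE scaling, no filter, a replicate block, only the groups compared, DESeq2 1.42.0, and leaving out each library in turn. Same-numbered libraries deviated together (every r over 0.1) for control DMSO with control IMP1088 (0.394, 0.123 and 0.231), control IMP1088 with control DDD86481, and senescent IMP1088 with senescent DDD86481. The numbers were taken to pair those groups, from the data alone, since the labels name no shared batch. By these pairs control DMSO and control DDD86481 would be paired too, through control IMP1088. Their own r was 0.16, 0.093 and 0.019, and they were not taken as paired.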

Additional observations from a re-analysis of the deposited data

Results flagged for a closer look

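The effect of an NMT inhibitor differed between senescent and control cells for 5 of the 10 genes, by a test of the difference itself (the interaction term of the edgeR fit, on the log2 scale, negative where the inhibitor lowered the gene more in senescent cells). For IMP1088 the difference was -1.27 for TGFB2, -0.56 for TGFBR2, -0.62 for LTBP1, -0.79 for SMAD3 and -0.65 for TGFBI. For DDD86481 it was -1.11 for TGFB2, -0.64 for TGFBR2, -0.64 for LTBP1, -0.80 for SMAD3 and -0.67 for TGFBI. The sets share the DMSO libraries of both states. Of all genes, 14.2% were called lower in this term with IMP1088 and 15.9% with DDD86481. Both LTBP1 calls were lost when the groups compared were fitted alone (adjusted p = 0.0623 and 0.0606). Leaving out 1 library lost the LTBP1 call in 5 of 12 fits for IMP1088 and 1 of 12 for DDD86481 (adjusted p up to 0.0701 and 0.0552). TGFB2 was the gene called in opposite directions in the 2 states.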

How the results depend on the processing

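The precision is that of 3 libraries per group, and TGFB3 in senescent cells rests on 4 to 15 counts per library. Of 780 results for the 10 genes with 1 library left out, 708 kept their direction and their side of the threshold, and of 110 in each other fit (109 with only the groups compared) 102 to 109 did. The cause of the exceptions was not tested. With DDD86481 in control cells the number of the 10 genes called was 1, but 3 with upper quartile scaling and 3 with the replicate block (TGFB3 and TGFBR1 added), and leaving out 1 library gave 0 to 3. With IMP1088 in control cells leaving out 1 library gave 0 to 2, and fitting only the groups compared cut the pathway genes called from 34 to 20 and all genes called from 4829 to 2716, as it cut those with DDD86481 from 5242 to 2842. For the DDD86481 interaction leaving out 1 library gave 5 to 8. With the replicate block TGFBR2 in senescence without inhibitor lost its call (adjusted p = 0.0544). TGFB1 and TGFBR1 gained one in the DDD86481 interaction (adjusted p = 0.0387 and 0.034). LTBP2 with IMP1088 in control cells turned from -0.014 to 0.00094. In the 3 comparisons taken as paired no call of the 10 genes changed. Those leave out DDD86481 against DMSO in control cells, where the block added the TGFB3 and TGFBR1 calls (adjusted p = 0.0366 and 0.0434). In upper quartile scaling SMAD7 in senescence turned to -0.085 under IMP1088 and -0.049 under DDD86481, and TGFBR2 between the inhibitors in senescent cells to 0.0058. Leaving out 1 library turned the sign of these uncalled values, whose ranges were, for SMAD7, -0.05 to 0.15 (senescence under IMP1088), -0.01 to 0.17 (under DDD86481), -0.061 to 0.14 (IMP1088 in control cells) and -0.20 to 0.043 (between inhibitors in control cells), for TGFBR1 -0.017 to 0.13 (IMP1088 in senescent cells) and -0.047 to 0.19 (between inhibitors in control cells), for TGFB3 -0.32 to 0.22 (DDD86481 in senescent cells), for LTBP2 -0.30 to 0.29 (IMP1088 in control cells) and -0.097 to 0.50 (DDD86481), for DDD86481 in control cells -0.041 to 0.039 (TGFB1), -0.25 to 0.082 (LTBP1) and -0.20 to 0.0086 (SMAD3), and between inhibitors in senescent cells -0.077 to 0.058 (TGFBR2) and -0.22 to 0.045 (SMAD3). TGFB3 was filtered out in 1 fit of the groups compared. Of 57 results for named pathway genes, 6 changed their call in some fit.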
